A study of Mus musculus with 7 samples.

Results

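The genes of cholesterol and fatty acid synthesis were followed in cells sorted from the mouse intestine, as 29 of the 28508 gene names on the array. They were chosen by name, as genes known to be controlled by sterol regulatory element-binding proteins (SREBPs). Earlier results of these data were known when they were chosen. They fall into a sterol arm of 17 genes, a fatty acid arm of 8 genes and 4 regulators. All 29 were measured, by 62 probes of 60 nucleotides, and passed the filter on dim probes. The CD24 groups came from Dll1-EGFP-ires-CreERT2 mice, in which green fluorescent protein (GFP) and a tamoxifen-inducible Cre are driven by the promoter of Dll1, which encodes a Notch ligand of early secretory cells. All their cells were sorted as GFP-high and then by the surface protein CD24 into CD24 high, CD24 medium and CD24 low, with 2 biological replicates per level. The last group was 1 sample of GFP-high cells of Lgr5-EGFP-ires-CreERT2 mice, in which the same cassette reports Lgr5, a receptor of crypt base stem cells. The labels give no age, sex or treatment, and do not say whether a sample pooled several animals. Each sample (Cy3) shared a dual-colour array with RNA of whole small intestine (Cy5), so a level here is log2 of sample over whole small intestine, and a difference is between 2 such levels. High 1, for instance, is the array of CD24 high replicate 1.

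SREBPs are transcription factors held in the membrane of the endoplasmic reticulum. When sterols are scarce, the escort protein SCAP carries them to the Golgi, where proteases free the active domain; when sterols are plentiful, INSIG proteins hold SCAP back. SREBP2, encoded by Srebf2, mainly drives the sterol enzymes and SREBP1, encoded by Srebf1, mainly the fatty acid enzymes, and Insig1 is itself a target. Intestinal crypt cells make cholesterol and fatty acids for new membranes, and secretory cells also for their granules and endoplasmic reticulum.

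Promoter windows are shown for Hmgcs1, the HMG-CoA synthase of the sterol arm, for Mvk, which passed in both comparisons with CD24 high, for Fasn of the fatty acid arm and for both SREBP genes. Each is the stretch of 100 bases, within 250 before any start of the gene, with the most matches to the motifs below. A sterol regulatory element counted more than other motifs in this choice. The density of marked letters is therefore not that of the whole promoter. Sequences are from RefSeq (GRCm38.p6), read 5′ to 3′ on the strand of the gene, and capitals mark matches on either strand to any of 4 motifs. These are the sterol regulatory element (SRE), searched as TCACNCCAC, the CCAAT letters, the E-box letters CACGTG, and the GC box, searched as GGGCGG.
Hmgcs1 (chr13:119690214-119690313, plus strand, bases 137 to 38 before the start): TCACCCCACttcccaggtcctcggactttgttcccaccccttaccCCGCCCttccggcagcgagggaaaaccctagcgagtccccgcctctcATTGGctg
Mvk (chr5:114444169-114444268, plus strand, bases 100 to 1 before the start): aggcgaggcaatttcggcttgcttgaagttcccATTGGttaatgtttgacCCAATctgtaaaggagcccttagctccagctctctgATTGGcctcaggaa
Fasn (chr11:120824548-120824647, minus strand, bases 100 to 1 before the start): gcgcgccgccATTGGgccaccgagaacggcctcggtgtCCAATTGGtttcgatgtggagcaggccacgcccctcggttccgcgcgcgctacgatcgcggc
Srebf1 (chr11:60210472-60210571, minus strand, bases 100 to 1 before 1 of its 3 starts): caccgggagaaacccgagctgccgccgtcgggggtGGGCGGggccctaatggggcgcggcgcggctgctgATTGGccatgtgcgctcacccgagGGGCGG
Srebf2 (chr15:82147169-82147268, plus strand, bases 100 to 1 before the start): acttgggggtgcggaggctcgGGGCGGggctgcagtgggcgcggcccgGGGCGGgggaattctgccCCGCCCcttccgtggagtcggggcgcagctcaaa

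Windows of 250 bases before the start were found for 23 of the 29 members, and not for Fdps, Fdft1, Sqle, Stard4, Scd1 and Scd2. The SRE letters occurred in 1 of the 23, Hmgcs1, against 1.22% of 27025 genes. CCAAT occurred in 19 of 23 members (82.6%) against 37.5% of all genes, and the GC box, the letters bound by the Sp1 family, likewise in 19 of 23 (82.6%) against 35.4%. Each was present in 12 of 13 sterol genes, 3 of 6 fatty acid genes and 4 of 4 regulators. The E-box letters occurred in Dhcr7, Hsd17b7 and Insig1 (13.0% of members, 6.86% of all genes). In the printed windows the Fasn letters CCAATTGG hold overlapping matches on both strands. These are matches of letters, and they describe no binding.

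CD24 high arrays were the dimmest, with 42.5 to 44.4% of spots well above background in the sample channel, against 52.8 to 60.5% elsewhere. On each CD24 high array 26 of the 29 members were well above background, and all 29 were on each of the other arrays. Acaca and Scd1 were not on either CD24 high array, Acat2 was not on high 1 and Me1 was not on high 2. Slide 1 held Lgr5, high 1 and medium 1, and slide 2 the remaining arrays, so CD24 low lay on slide 2 alone. The replicates are not tied to animals in the labels, so p-values measure the spread between these samples, and none of that spread comes from Lgr5. Because RNA was compared in bulk, fewer cells of a type and less RNA per cell cannot be told apart.

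Most members stood below their level in whole small intestine, in every group. They were under the reference for 25 of 29 on the Lgr5 array, for 19 and 24 on the CD24 high arrays, for 19 and 22 on CD24 medium and for 18 and 21 on CD24 low, while the median of all genes tested lay between −0.01 and 0.07. Samples carried the same dye throughout, so a level against the reference may include a bias of the dyes, which drops out of comparisons between groups. The sterol arm's median level was −1.22 in Lgr5, −0.44 and −0.99 on the high arrays, −0.39 and −0.83 on the medium arrays and −0.24 and −0.42 on the low arrays. The fatty acid arm's was −1.73 in Lgr5, −1.08 and −0.82 on the high arrays, −1.02 and −1.21 on the medium arrays and −0.69 and −0.90 on the low arrays. Both arms were thus lowest on the Lgr5 array, and the sterol medians of CD24 medium overlapped those of CD24 high and low, while both CD24 low medians lay above both of CD24 high.

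**Figure D1:**
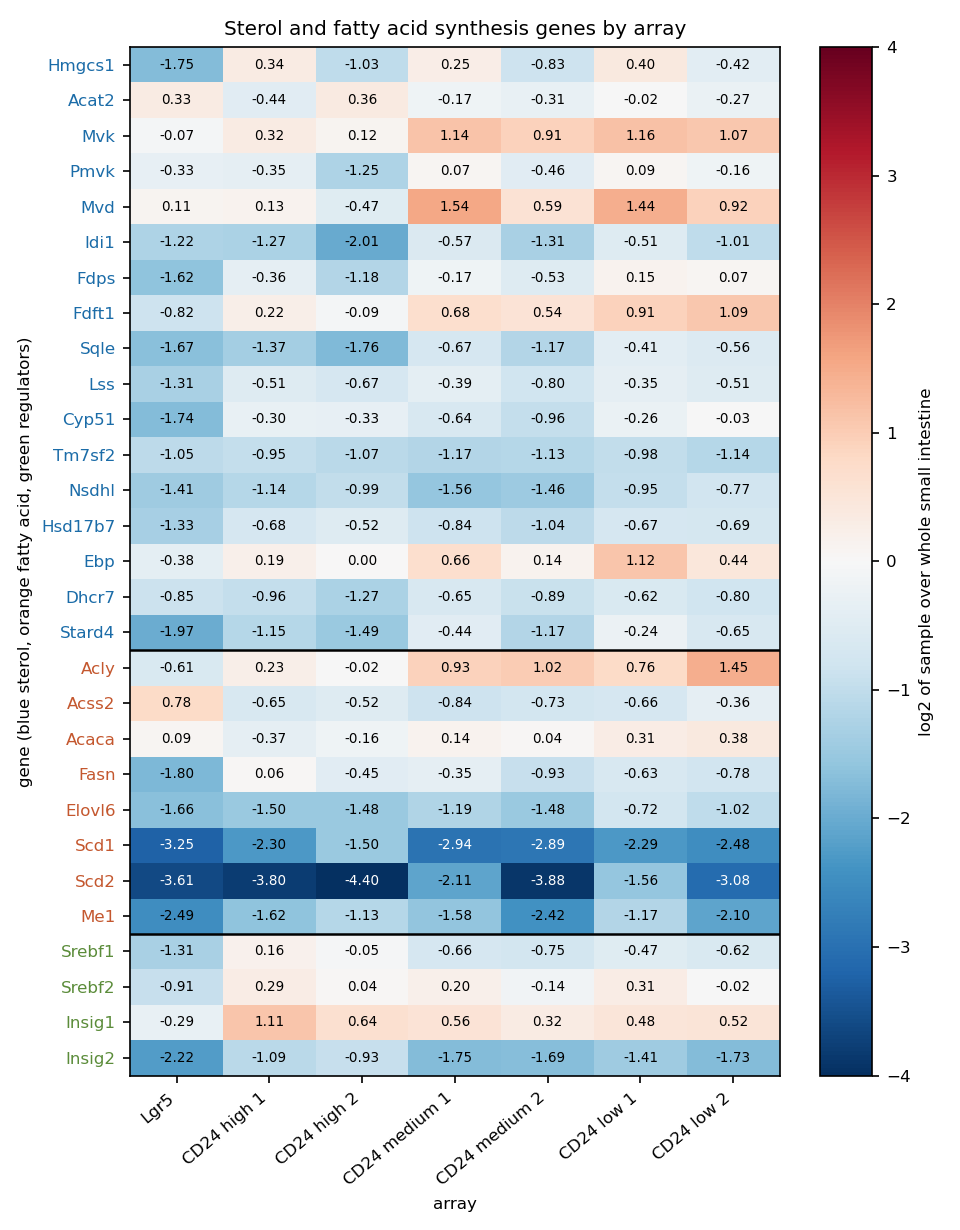
Level of each member (rows; sterol, fatty acid and regulator genes in 3 colours of label) on each of the 7 arrays (columns), as a colour for log2 of sample over whole small intestine. The 4 regulators are lowest on the Lgr5 array.

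**Figure D2:**
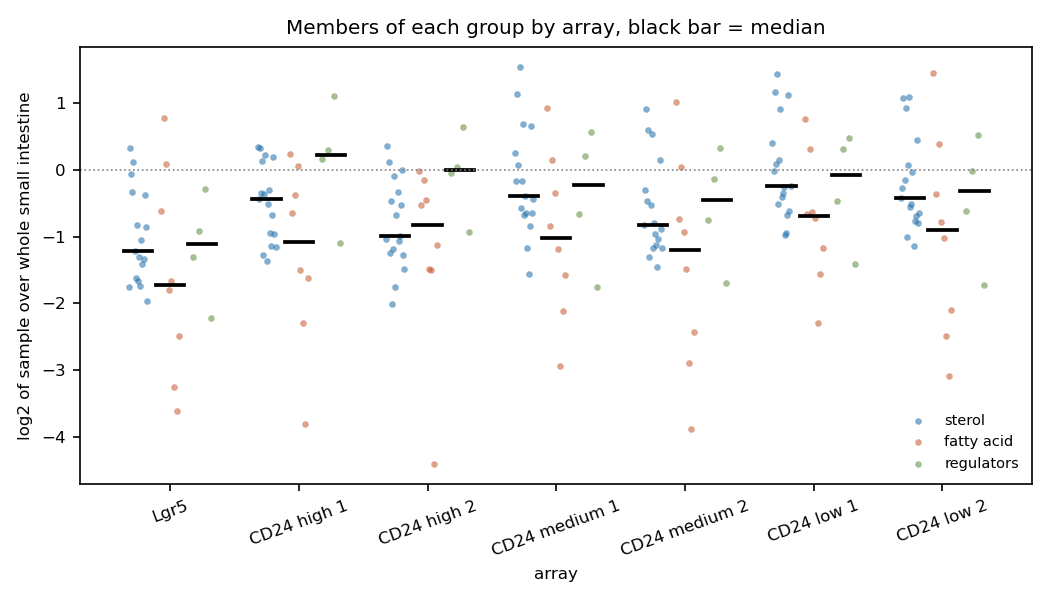
Levels of the members by array (log2 of sample over whole small intestine, vertical axis), 1 point per gene in the sterol arm, fatty acid arm and regulators, with black bars for medians. Sterol medians range from −1.22 (Lgr5) to −0.24 (low 1).

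The 3 groups of members ordered the cells differently. In mean level, 14 of 17 sterol genes were highest in CD24 low, 2 in CD24 high and 1 in Lgr5, whereas 4 of 4 regulators were highest in CD24 high. The fatty acid arm was divided, with 4 genes highest in CD24 low, 3 in CD24 high and 1 in Lgr5. The 3 in CD24 high were Fasn, Scd1 and Me1. Of these, Scd1 was not well above background on either CD24 high array, nor Me1 on high 2, where its level was highest. Lgr5 held the lowest level for 10 of 17 sterol genes, 5 of 8 fatty acid genes and 4 of 4 regulators. These are orders of means on the probes used, and many neighbours in them did not differ beyond their spread, as the tests below show.

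Srebf1, which encodes SREBP1, was highest in CD24 high and lowest in Lgr5. Its level was 0.16 and −0.05 on the high arrays, −0.66 and −0.75 on the medium arrays, −0.47 and −0.62 on the low arrays and −1.31 in Lgr5 (probe at chromosome 11, 60013214 to 60013273, mm9). No array of another group reached those of CD24 high. It was 1.70-fold lower in CD24 medium than in CD24 high (log2 difference −0.76, SE 0.16, limma adjusted p = 0.021), 1.52-fold lower in CD24 low (−0.60, SE 0.16, limma adjusted p = 0.0477), and 2.58-fold higher in CD24 high than in Lgr5 (1.37, SE 0.20, limma adjusted p = 0.0031). CD24 low exceeded Lgr5 by 0.77 (limma adjusted p = 0.038), and medium exceeded it by 0.60 without passing (0.082). The call against CD24 medium ended without high 1 (limma adjusted p = 0.079), medium 1 (0.091) or medium 2 (0.13), in a range of 0.0088 to 0.13 over all alternatives. That of CD24 low against CD24 high ended when any 1 of the 6 CD24 arrays was left out (0.068 to 0.18), and that against Lgr5 without medium 1 or medium 2 (0.077 each), low 1 (0.085) or low 2 (0.069). With the sample channel alone the differences from CD24 high shrank to −0.34 in CD24 medium (limma adjusted p = 0.098) and −0.26 in CD24 low (0.16), and with slide as a term the latter was −0.53 (0.11). Against Lgr5 CD24 low did not pass with processed signals (limma adjusted p = 0.057), the series matrix (0.096) or slide as a term (0.089).

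On the probe used Srebf2, which encodes SREBP2, was lower on the Lgr5 array than on every Dll1 array. Its level was −0.91 in Lgr5, 0.29 and 0.04 on the high arrays, 0.20 and −0.14 on the medium arrays and 0.31 and −0.02 on the low arrays (chromosome 15, 82035695 to 82035754). The CD24 levels overlapped. Srebf2 was 2.10-fold higher in CD24 high than in Lgr5 (1.07, SE 0.25, limma adjusted p = 0.018), 1.91-fold in CD24 medium (0.93, limma adjusted p = 0.0473) and 2.07-fold in CD24 low (1.05, limma adjusted p = 0.031). The calls ended without high 1 (limma adjusted p = 0.062) for CD24 high, without low 1 (0.07) for CD24 low, and for CD24 medium without high 1 or high 2 (0.063 each), medium 1 (0.17) or medium 2 (0.083). With the sample channel alone CD24 high exceeded Lgr5 by 0.51 (limma adjusted p = 0.076) and CD24 medium by 0.57 (0.085). CD24 medium also did not pass with processed signals (0.0549), the series matrix (0.086) or no filter on dim probes (0.055), nor CD24 low with the series matrix (0.061) or slide as a term (0.0503). Between CD24 levels its differences were −0.14 and −0.02 against CD24 high (limma adjusted p = 0.67 and 0.95), with signs that turned under the sample channel alone. Against Lgr5 the further Srebf2 probes differed in size and direction. For CD24 high, medium and low they gave 1.28, 1.00 and 1.26, and 2.04, 1.65 and 2.21. The last, well above background on 5 arrays, gave −0.38, −0.18 and −0.39.

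The INSIG genes, whose products retain SCAP in the endoplasmic reticulum, had the order of Srebf1 in their means, with CD24 high first and Lgr5 last. Insig1 was −0.29 in Lgr5, 1.11 and 0.64 on the high arrays, 0.56 and 0.32 on the medium arrays and 0.48 and 0.52 on the low arrays (chromosome 5, 28404246 to 28404305). Both CD24 high arrays were above all others, though high 2 only just. CD24 high exceeded Lgr5 2.24-fold (1.16, SE 0.25, limma adjusted p = 0.013), while the differences of −0.43 and −0.38 between CD24 medium or low and CD24 high did not pass (limma adjusted p = 0.19 and 0.25). A further Insig1 probe gave −0.02 and 0.06 for these last 2 differences. Insig2 was −2.22 in Lgr5, −1.09 and −0.93 on the high arrays, −1.75 and −1.69 on the medium arrays and −1.41 and −1.73 on the low arrays (chromosome 1, 123201085 to 123201144). It was 2.31-fold higher in CD24 high than in Lgr5 (1.21, SE 0.21, limma adjusted p = 0.0065) and 1.64-fold lower in CD24 medium than in CD24 high (−0.71, SE 0.18, limma adjusted p = 0.034). The latter call ended without high 1 (limma adjusted p = 0.071), high 2 (0.14), medium 1 (0.16) or medium 2 (0.14), and with the sample channel alone (0.089), the series matrix (0.073) or the mean of all probes (0.0531), its range over all alternatives being 0.018 to 0.16.

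On the probes used, the regulators had 4 of 4 members negative in CD24 medium and low against CD24 high, though Srebf2 turned positive with the sample channel alone. They had 4 of 4 positive in each comparison with Lgr5, though a further Srebf2 probe was negative in each. Median differences of the regulators were −0.57 and −0.47 against CD24 high, and 1.19, 0.67 and 0.78 for CD24 high, medium and low against Lgr5. Medians over all genes tested were 0.01, 0.02, 0.10, 0.09 and 0.10 in the same comparisons. In CD24 low against medium the regulators differed by 0.05 to 0.16 and 0 passed.

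At the start of the sterol arm, Mvk rose from CD24 high to both other CD24 levels. It encodes mevalonate kinase, which phosphorylates mevalonate, and its level was −0.07 in Lgr5, 0.32 and 0.12 on the high arrays, 1.14 and 0.91 on the medium arrays and 1.16 and 1.07 on the low arrays (chromosome 5, 114905993 to 114908940). CD24 medium and low arrays all lay above the other 3. The rise was 1.75-fold in CD24 medium (0.81, SE 0.17, limma adjusted p = 0.020) and 1.86-fold in CD24 low (0.90, SE 0.17, limma adjusted p = 0.014), and against Lgr5 the same groups were 2.13-fold (limma adjusted p = 0.015) and 2.26-fold higher (0.012). A further probe gave 0.77 and 0.92 against CD24 high. Within slides 1 and 2 CD24 medium exceeded high by 0.82 and 0.79, and within slide 2 CD24 low exceeded high by 1.00. Against CD24 high the call for medium ended without medium 1 (limma adjusted p = 0.12), high 2 (0.091) or medium 2 (0.069), and that for low without high 2 (0.07) or low 2 (0.0511). Against Lgr5 the call for medium ended without medium 1 (0.071) or with the series matrix (0.065).

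Mvd, which encodes mevalonate diphosphate decarboxylase, had larger differences but also wider replicates. Its level was 0.11 in Lgr5, 0.13 and −0.47 on the high arrays, 1.54 and 0.59 on the medium arrays and 1.44 and 0.92 on the low arrays. Its CD24 low and medium arrays did not overlap with CD24 high, yet the differences of 1.24 (SE 0.37, limma adjusted p = 0.060) and 1.35 (SE 0.37, limma adjusted p = 0.0513) did not pass. With slide as a term they did (limma adjusted p = 0.019 and 0.012). Pmvk, the kinase between Mvk and Mvd, stood at −0.33 in Lgr5, −0.35 and −1.25 on the high arrays, 0.07 and −0.46 on the medium arrays and 0.09 and −0.16 on the low arrays, with overlap between groups and 0 calls.

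Hmgcs1, the cytosolic synthase that makes the HMG-CoA from which mevalonate is formed, differed more between replicates than between CD24 levels on the probe used. Its level was −1.75 in Lgr5, 0.34 and −1.03 on the high arrays, 0.25 and −0.83 on the medium arrays and 0.40 and −0.42 on the low arrays (chromosome 13_random, 114807 to 114866). Replicate 1 exceeded replicate 2 by 1.37, 1.08 and 0.82, and the differences between CD24 levels were 0.05 to 0.33. CD24 low exceeded Lgr5 by 1.74 (SE 0.67), which did not pass (limma adjusted p = 0.11). A further Hmgcs1 probe was well above background on 6 arrays. It read −0.52 and −0.34 on the high arrays, −0.97 and −1.34 on the medium arrays and −0.72 and −0.82 on the low arrays. Its differences from CD24 high were −0.72 in CD24 medium and −0.33 in CD24 low. Another Hmgcs1 probe, well above background on 4 arrays, gave 0.12 and 0.18. Acat2, the thiolase that opens the pathway, shares its probe with Acat3 and passed in 0 comparisons.

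Of the enzymes that carry mevalonate products to squalene, Fdft1 was higher in CD24 low than in CD24 high and higher in each CD24 level than in Lgr5. It encodes squalene synthase and stood at −0.82 in Lgr5, 0.22 and −0.09 on the high arrays, 0.68 and 0.54 on the medium arrays and 0.91 and 1.09 on the low arrays (chromosome 14, 63765769 to 63770009). The 4 groups did not overlap on this probe. Fdft1 was 1.91-fold higher in CD24 low than in CD24 high (0.93, SE 0.18, limma adjusted p = 0.016), and against Lgr5 1.85-fold higher in CD24 high (limma adjusted p = 0.021), 2.68-fold on the medium arrays (0.0085) and 3.52-fold in CD24 low (1.82, SE 0.22, 0.0039). A further Fdft1 probe, well above background on 3 arrays, went the opposite way, by −1.38 in CD24 medium and −1.69 in CD24 low against CD24 high. With the mean of all probes the difference of CD24 low from CD24 high was −0.38, and the call also ended without high 2 (limma adjusted p = 0.073) or low 2 (0.077), in a range of 0.0031 to 0.36. The calls against Lgr5 depended on the probe too: with the mean of all probes CD24 low exceeded Lgr5 by 0.84 (limma adjusted p = 0.12) and CD24 medium by 0.81 (0.14). The call of CD24 high against Lgr5 ended without high 1 or with the series matrix (limma adjusted p = 0.066 each).

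Fdps, which makes farnesyl diphosphate, was higher in CD24 low than in Lgr5, and Idi1, the isomerase before it, passed in 0 comparisons. The probe used for Fdps read −1.62 in Lgr5, and −0.36 and −1.18 on the high arrays. It read −0.17 and −0.53 on the medium arrays and 0.15 and 0.07 on the low arrays. CD24 low was above every other array and 3.32-fold above Lgr5 (1.73, SE 0.35, limma adjusted p = 0.019), while its 0.88 over CD24 high did not pass (limma adjusted p = 0.082). A further Fdps probe, well above background on 7 arrays, gave 0.68 for CD24 low against Lgr5 and 0.07 against CD24 high. On that probe low 1 (0.05) lay below high 1 (0.30) and medium 1 (0.08). Idi1 ranged from −2.01 on high 2 to −0.51 on low 1.

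Sqle, the squalene epoxidase that is a rate-limiting step of the sterol arm, rose 2.11-fold from CD24 high to CD24 low. Its level was −1.67 in Lgr5, −1.37 and −1.76 on the high arrays, −0.67 and −1.17 on the medium arrays and −0.41 and −0.56 on the low arrays (chromosome 15, 59162384 to 59162443). CD24 low was above all other arrays, and Lgr5 lay within the range of CD24 high. The difference from CD24 high was 1.08 (SE 0.23, limma adjusted p = 0.023), and that from Lgr5 was 1.18 (2.27-fold, SE 0.28, limma adjusted p = 0.030). The first call ended without low 1 (limma adjusted p = 0.064), high 2 (0.11) or low 2 (0.07), and the second without low 1 (0.066) or low 2 (0.063) and with processed signals (0.06), the sample channel alone (0.082) or the series matrix (0.089). Sqle in CD24 medium against high differed by 0.65 (limma adjusted p = 0.095), and passed with slide as a term (limma adjusted p = 0.043).

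From lanosterol on, 0 of 7 genes passed between CD24 levels on the probes used. Of all genes, 20.9% were called in CD24 medium and 18.1% in CD24 low against CD24 high, and 0.114% in CD24 low against medium. With only 7 genes, the count of 0 says little about these steps. On those probes Lgr5 was lowest for Cyp51, Hsd17b7, Lss and Ebp. A further Hsd17b7 probe, well above background on 7 arrays, gave 0.26, −0.20 and −0.17 for CD24 high, medium and low against Lgr5. Cyp51, the lanosterol demethylase, stood at −1.74 in Lgr5, −0.30 and −0.33 on the high arrays, −0.64 and −0.96 on the medium arrays and −0.26 and −0.03 on the low arrays (chromosome 5, 4083236 to 4083295). Its 6 Dll1 arrays were all above Lgr5, by 1.42 in CD24 high (2.68-fold, limma adjusted p = 0.0040), 0.94 in CD24 medium (1.92-fold, limma adjusted p = 0.031) and 1.59 in CD24 low (3.02-fold, limma adjusted p = 0.0059). With the mean of all its probes the excess of CD24 high was 0.70 and did not pass (limma adjusted p = 0.068). The call for CD24 medium ended without high 1 or high 2 (limma adjusted p = 0.0508 each), medium 1 (0.12) or medium 2 (0.063). It also ended with processed signals (0.95, limma adjusted p = 0.08), the sample channel alone (0.53, 0.14), the series matrix (0.83, 0.11) and the mean of all probes (0.56, 0.17). Hsd17b7, a sterol ketone reductase, was −1.33 in Lgr5, −0.68 and −0.52 on the high arrays, −0.84 and −1.04 on the medium arrays and −0.67 and −0.69 on the low arrays. It was 1.66-fold higher in CD24 high than in Lgr5 (0.73, SE 0.20, limma adjusted p = 0.028), a call that ended without high 2 (0.087) or without medium 1 or medium 2 (0.0526 each). It also ended with processed signals (0.67, limma adjusted p = 0.059), the sample channel alone (0.15, 0.47), the series matrix (0.39, 0.20), the mean of all probes (0.50, 0.10) and slide as a term (0.056).

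Lss, which closes the ring to lanosterol, gave different pictures by probe. The probe used, drawn from a transcript outside RefSeq, read −1.31 in Lgr5, −0.51 and −0.67 on the high arrays, −0.39 and −0.80 on the medium arrays and −0.35 and −0.51 on the low arrays. Its CD24 groups overlapped, and CD24 low was 1.84-fold above Lgr5 (0.88, SE 0.24, limma adjusted p = 0.042). That call ended without any 1 of the 6 Dll1 arrays (limma adjusted p = 0.0521 to 0.093), and with processed signals (0.13), the sample channel alone (0.31, 0.44), the series matrix (0.19) or slide as a term (0.059). The 2 further probes were both for the RefSeq transcript and well above background on 7 arrays. They gave 0.96 and 1.33 for CD24 low against CD24 high, where the probe used gave 0.16. For CD24 low against Lgr5 they gave 1.83 and 2.27, where the probe used gave 0.88.

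The last sterol genes passed in few comparisons. Stard4, a carrier that moves cholesterol between membranes, was −1.97 in Lgr5, −1.15 and −1.49 on the high arrays, −0.44 and −1.17 on the medium arrays and −0.24 and −0.65 on the low arrays. It was 2.88-fold higher in CD24 low than in Lgr5 (1.53, SE 0.35, limma adjusted p = 0.028), but by 1.32 without low 1 (limma adjusted p = 0.064), 0.86 with the mean of all probes (0.0535), and without passing for processed signals (0.0533), the sample channel alone (0.064) and the series matrix (0.071). Ebp, the sterol isomerase, ranged from −0.38 in Lgr5 to 1.12 on low 1, and Dhcr7, which completes cholesterol, from −1.27 on high 2 to −0.62 on low 1. Tm7sf2 spanned only −1.17 to −0.95 over the 7 arrays, and Nsdhl −1.56 to −0.77. These 4 passed in 0 comparisons.

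In the fatty acid arm, Acly rose from CD24 high to CD24 low. It encodes ATP citrate lyase, which supplies cytosolic acetyl-CoA to both arms, and stood at −0.61 in Lgr5, 0.23 and −0.02 on the high arrays, 0.93 and 1.02 on the medium arrays and 0.76 and 1.45 on the low arrays (chromosome 11, 100338517 to 100338575). CD24 medium and low arrays were all above CD24 high, and CD24 high above Lgr5. The rise to CD24 low was 1.99-fold (0.99, SE 0.25, limma adjusted p = 0.039), and against Lgr5 the excess was 2.99-fold in CD24 medium (limma adjusted p = 0.017) and 3.27-fold in CD24 low (0.013). The rise from CD24 high to medium, 0.86, did not pass (limma adjusted p = 0.054). The call of CD24 low against high ended without high 1 (limma adjusted p = 0.087), high 2 (0.16), low 2 (0.13), medium 1 or medium 2 (0.068 each), with slide as a term (0.075) or with no filter on dim probes (0.0524). The call of low against Lgr5 ended with slide as a term (0.06), and that of medium against Lgr5 without medium 1 (0.0512) or medium 2 (0.07).

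Acss2, which makes acetyl-CoA from acetate, was lower in each CD24 level than in Lgr5. It stood at 0.78 in Lgr5, −0.65 and −0.52 on the high arrays, −0.84 and −0.73 on the medium arrays and −0.66 and −0.36 on the low arrays (chromosome 2, 155388126 to 155388188). The 6 Dll1 arrays overlapped, and all lay below the Lgr5 array. Acss2 was 2.57-fold lower in CD24 high (−1.36, SE 0.21, limma adjusted p = 0.0040), 2.96-fold lower in CD24 medium (−1.56, limma adjusted p = 0.0057) and 2.43-fold lower in CD24 low (−1.28, limma adjusted p = 0.010) than in Lgr5. These calls held in every alternative run, with limma adjusted p at most 0.042. It was the only member called lower in any Dll1 group than in Lgr5, and the 3 comparisons share the Lgr5 array.

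On the probe used Fasn, the fatty acid synthase that builds palmitate, was lowest in Lgr5 and highest in CD24 high. Its level was −1.80 in Lgr5, 0.06 and −0.45 on the high arrays, −0.35 and −0.93 on the medium arrays and −0.63 and −0.78 on the low arrays (chromosome 11, 120668460 to 120668519). CD24 high and medium overlapped. CD24 high was 3.04-fold above Lgr5 (1.60, SE 0.32, limma adjusted p = 0.0098), while CD24 medium (1.16, limma adjusted p = 0.0503) and CD24 low (1.09, 0.0545) did not pass. Its differences of −0.45 and −0.51 from CD24 high did not pass either (limma adjusted p = 0.27 and 0.22), and a further probe gave 0.12 and 0.07. Against Lgr5 that further probe, well above background on 7 arrays, gave smaller differences of 0.44 in CD24 high, 0.56 in CD24 medium and 0.50 in CD24 low.

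Acaca and Scd1 were too dim in CD24 high for a measured size there. Acaca, the acetyl-CoA carboxylase that makes malonyl-CoA, stood at 0.09 in Lgr5, −0.37 and −0.16 on the high arrays, 0.14 and 0.04 on the medium arrays and 0.31 and 0.38 on the low arrays. The direction of Acaca between CD24 low and high depended on the probe. On the probe used CD24 low was at least 1.48-fold higher, the bound being the higher of the dim signal and the lowest detected signal on the same arrays (limma adjusted p = 0.044). The call ended when any 1 of the 6 Dll1 arrays was left out (limma adjusted p = 0.074 to 0.16) and with slide as a term (0.10). A further Acaca probe, well above background on 7 arrays, gave −0.74, which passed as lower when it stood for the gene (limma adjusted p = 0.031), and the mean of all probes gave 0.01 (0.98). Scd1, the stearoyl-CoA desaturase, stood at −3.25 in Lgr5, −2.30 and −1.50 on the high arrays, −2.94 and −2.89 on the medium arrays and −2.29 and −2.48 on the low arrays. Its calls, higher in CD24 high than in CD24 medium (limma adjusted p = 0.042) and Lgr5 (0.021), came with no size. Both turned direction with Agilent's own normalised signals and with the series matrix: medium minus high was −1.02, and 0.31 and 0.47 with those values. The call against CD24 medium also ended without high 2 (−0.61, limma adjusted p = 0.12), medium 1 (0.15), medium 2 (0.14), low 1 or low 2 (0.0505 each), with the sample channel alone (0.01, 0.95) and with no filter on dim probes (0.056), and that against Lgr5 with the sample channel alone (−0.04, 0.87).

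The other fatty acid genes passed in 0 comparisons. Scd2, a second desaturase, was below whole intestine on every array, at −3.61 in Lgr5, −3.80 and −4.40 on the high arrays, −2.11 and −3.88 on the medium arrays and −1.56 and −3.08 on the low arrays. Its replicates differed by 1.77 in CD24 medium and 1.52 in CD24 low. Elovl6, which lengthens palmitate, ranged from −1.66 in Lgr5 to −0.72 on low 1, and Me1, a malic enzyme that yields NADPH, from −2.49 in Lgr5 to −1.13 on high 2.

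**Figure D3:**
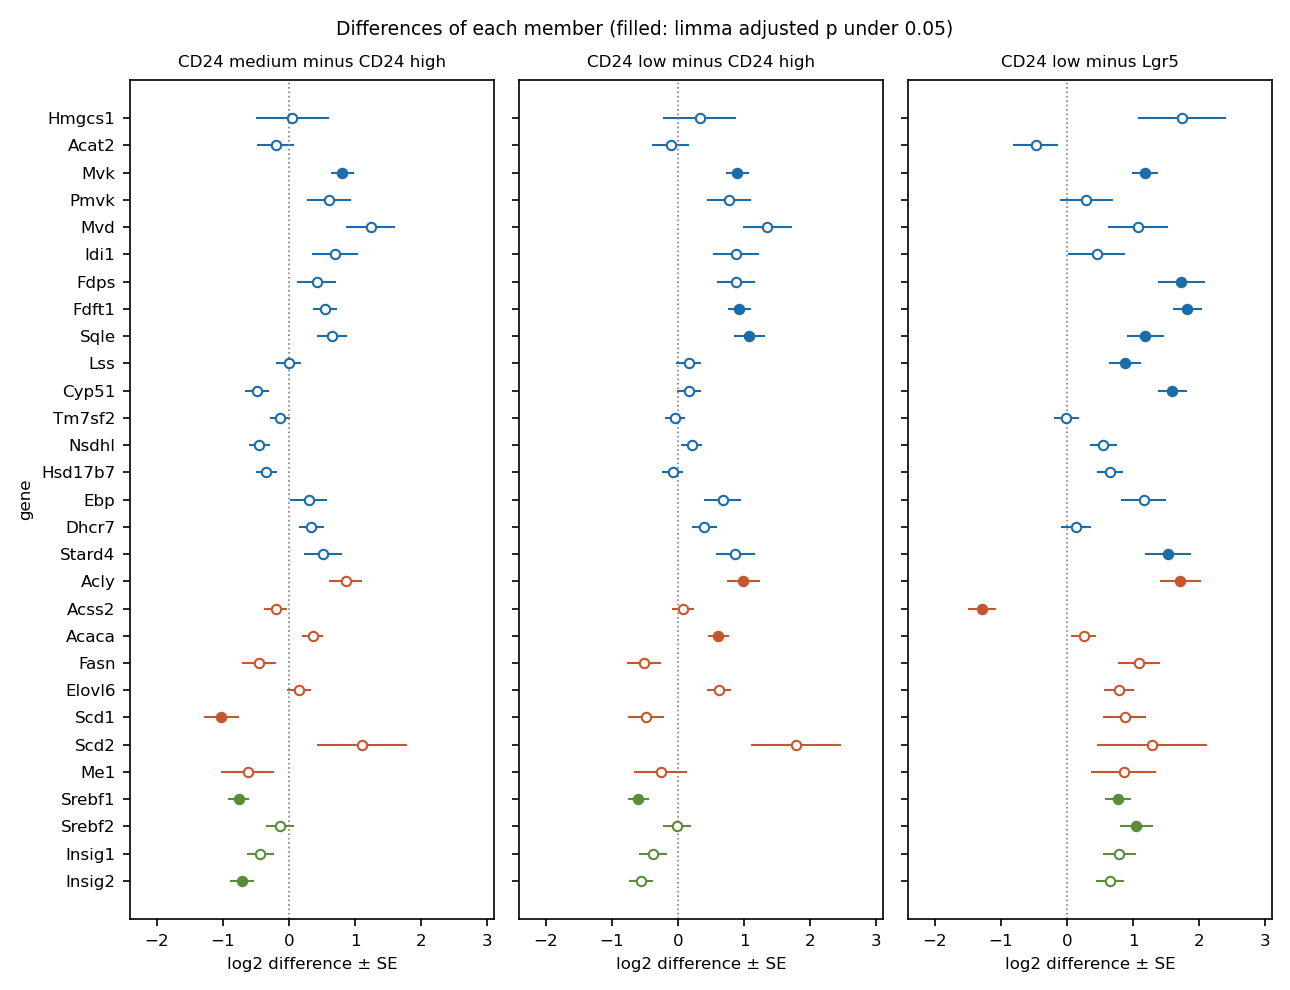
Log2 difference of each member with its SE (horizontal axis, 1 panel per comparison, genes as rows), filled where the limma adjusted p is under 0.05. In CD24 low against CD24 high, Mvk, Fdft1, Sqle, Acly and Acaca are filled to the right of 0 and Srebf1 to the left.

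Counted over the members, calls between CD24 levels came at shares near those of all genes. CD24 medium against CD24 high gave 4 of 29 (Mvk higher; Srebf1, Insig2 and Scd1 lower), where 20.9% of all genes tested were called, 7.53% higher and 13.4% lower. CD24 low against CD24 high gave 6 of 29 (5 higher, 1 lower), against 18.1% of all genes. CD24 low against CD24 medium gave 0 of 29, against 0.114%, while 28 of 29 members were positive with a median of 0.25; 9756 of all 17507 genes were positive there. Without medium 1 the first count was 0, without high 2 or medium 2 it was 1 and without high 1 it was 2. Without high 2 or low 2 the second was 0, without low 1 it was 3 and without medium 1 or medium 2 it was 4.

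In direction, though, the higher calls of CD24 low against CD24 high were 5 of 29 where 6.85% of all genes were called higher. The lower call was 1 of 29 where 11.2% were called lower. Whether these shares differ was not tested. The 5 include Acaca, too dim on both CD24 high arrays for a measured size, and Fdft1. A further probe of each was negative, at −0.74 for Acaca and −1.69 for Fdft1, while another Acaca probe gave 0.16. The sterol arm had 14 of 17 genes positive in that comparison with a median of 0.68, against 0.02 over all genes, and the fatty acid arm 5 of 8 with 0.34. In CD24 medium against high the sterol arm had 11 of 17 positive with a median of 0.34, and the fatty acid arm 4 of 8 with −0.02. The sterol median for CD24 low against high fell to 0.32 without high 2 and 0.34 without low 1, and that for CD24 medium fell to 0.15 without medium 1 and 0.19 without high 2 and reached 0.69 without high 1 and 0.59 without medium 2. Within slide 2 it was 1.00 for CD24 low against high, and within slides 1 and 2 it was 0.31 and 0.32 for CD24 medium. The fatty acid medians were 0.25 for CD24 low against high within slide 2, and 0.17 and −0.11 for CD24 medium within slides 1 and 2. The difference between the arms was not tested. It turned with scaling for the fatty acid arm in CD24 medium against high, whose median was 0.42 with Agilent's own normalised signals and 0.36 from the sample channel by itself.

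CD24 low against medium gave sterol and fatty acid medians of 0.26 and 0.32, with 17 of 17 and 7 of 8 genes positive. The sterol median was 0.03 without medium 2, 0.05 without low 1 and 0.55 without medium 1, and the fatty acid median 0.19 without medium 2. Within slide 2 the medians were 0.55 and 0.41.

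Against the Lgr5 array the members were more often higher. CD24 high gave 9 higher and 1 lower of 29 (35.9% of all genes called, 21.2% higher, 14.7% lower), CD24 medium 5 and 1 (18.8%, 10.3% higher, 8.51% lower) and CD24 low 10 and 1 (21.7%, 11.9% higher, 9.77% lower). The share of members called higher in CD24 low was the one farthest above that of all genes. It rests on 1 Lgr5 array, and the CD24 low count was 6 without low 1; the CD24 medium count was 2 without medium 1 and 4 without medium 2. The sterol medians were 0.34, 0.75 and 1.07 for CD24 high, medium and low, and the fatty acid medians 0.44, 0.41 and 0.86. With the sample channel alone the medians of CD24 high against Lgr5 turned to −0.02 and −0.21, so the direction of the arms in that comparison depends on the scaling. Leaving out medium 1 took the medians of CD24 medium to 0.50 and 0.12, and leaving out medium 2 to 1.00 and 0.69.

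Replicate 1 lay above replicate 2 for most sterol genes at each CD24 level, on the probes used. This held for 14 of 17 genes in CD24 high (median 0.31), 15 of 17 in CD24 medium (0.36) and 14 of 17 in CD24 low (0.16). In the fatty acid arm it held for 3, 5 and 5 of 8 genes. The offset of the sterol arm in CD24 medium is as large as its median difference of 0.34 between CD24 medium and high. For CD24 high and medium the replicate is also the slide, and the 2 cannot be told apart there, whereas both CD24 low arrays lay on slide 2. Hmgcs1 had the widest offsets of the sterol arm on these probes. Further probes were not counted and went both ways. On high 1 and high 2, further probes of Hmgcs1 (−0.52 and −0.34) and Idi1 (−1.05 and −0.64) had replicate 1 lower. Those of Pmvk (−0.31 and −1.09) and Fdft1 (2.35 and 1.09) had replicate 1 higher.

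**Figure D4:**
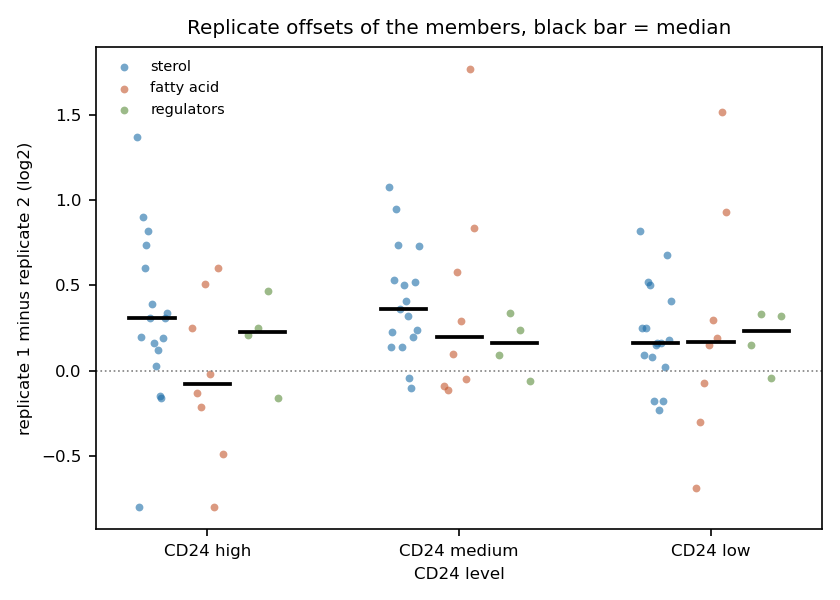
Replicate 1 minus replicate 2 for each member (log2, vertical axis) at each CD24 level, as points for the sterol arm, fatty acid arm and regulators, with black bars for medians. Sterol medians are 0.31, 0.36 and 0.16, all above 0.

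Further probes give a second reading for 19 members. Of 28 such probes, 19 had the sign of the probe used in CD24 low against high, 14 in CD24 medium against high, 24 in CD24 low against medium and 25 in CD24 low against Lgr5. In CD24 low against high, probes of Fdft1, Acaca, Fasn and Insig1 opposed the ones used, as described. A further probe also opposed the one used for Dhcr7 (−0.40 against 0.40), Idi1 (−0.20 against 0.88) and Hmgcs1 (−0.33 against 0.33). The same held for Stard4 (−0.06 against 0.87) and Srebf2 (0.17 against −0.02). Other further probes of Hmgcs1, Stard4 and Srebf2 shared the sign. Members outside these 19 have no such check: 9 have 1 probe, and Acly has a second that was too dim to be kept.

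**Figure D5:**
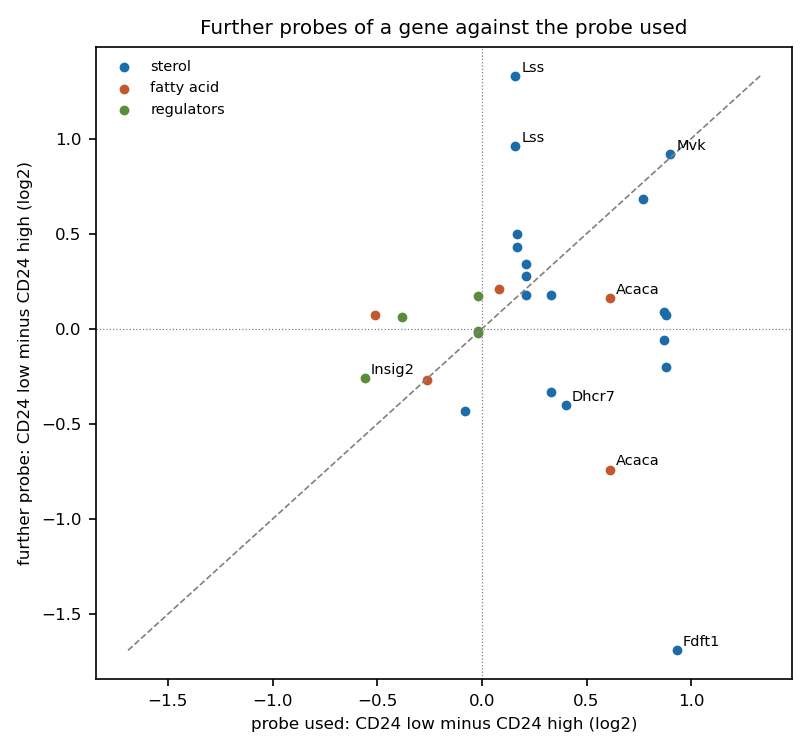
CD24 low minus CD24 high (log2) from each further probe (vertical axis) against that from the probe used (horizontal axis). Of 28 further probes 19 share the sign, and the Fdft1 probe lies lowest at −1.69.

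Other genes of the same pathways moved in both directions. Of 28 listed, 26 were measured, and CD24 medium and CD24 low each had 5 higher and 5 lower than CD24 high, where 20.9% (7.53% higher, 13.4% lower) and 18.1% (6.85% and 11.2%) of all genes were called. Soat1, which esterifies cholesterol for storage, fell most in CD24 low: it was 2.87 in Lgr5, 2.82 and 2.56 on the high arrays, 0.83 and 0.60 on the medium arrays and 0.78 and 0.21 on the low arrays. It was 3.93-fold lower in CD24 medium (limma adjusted p = 0.0031) and 4.57-fold lower in CD24 low (0.0017). Mylip, a ubiquitin ligase that targets lipoprotein receptors, stood at −0.19 and 0.35 in CD24 high and between −1.94 and −1.68 in CD24 medium and low, 3.74-fold and 3.57-fold lower (limma adjusted p = 0.0029 for both). For Soat1 the Lgr5 array lay beside CD24 high, whereas for Mylip it lay at −2.82, below every other array.

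Tmem97, a sterol-responsive membrane protein, rose from CD24 high to both other CD24 levels. It was 1.48 in Lgr5, 0.23 and −0.07 on the high arrays, 1.28 and 1.26 on the medium arrays and 1.59 and 1.60 on the low arrays, so 2.28-fold (limma adjusted p = 0.0053) and 2.86-fold (0.0019) above CD24 high. Pgd, an NADPH source, was 2.49-fold higher in CD24 low (limma adjusted p = 0.0025). Mlxipl, a glucose-responsive transcription factor of lipid genes, was 4.27-fold above CD24 high on the medium arrays (2.09, SE 0.31, limma adjusted p = 0.0065), at 1.90 and 2.30 against 0.37 and −0.36. Scap, the SREBP escort, was 0.88 and 0.91 in CD24 high and between −0.11 and 0.01 in CD24 medium and low; it is shown as the escort and lies outside the rule for the largest differences. Of the 26 genes 0 passed in CD24 low against medium. Compared with Lgr5, CD24 high had 7 of these 26 called higher and 6 lower, where 21.2% of all genes were called higher and 14.7% lower. For CD24 medium the counts were 5 higher and 4 lower (all genes: 10.3% and 8.51%). CD24 low gave the same counts (all genes: 11.9% and 9.77%).

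Markers of cell types moved with the CD24 levels in the same comparisons. Paneth cell markers (7 genes) had median levels of 5.13 and 5.55 on the high arrays, −0.56 and −0.23 on the medium arrays, −2.86 and −3.49 on the low arrays and −3.53 in Lgr5, with 7 of 7 lower in CD24 medium and in low than in high. Of 10 enteroendocrine markers, 9 were higher in CD24 medium than in high (median 4.47) and 4 were higher in CD24 low. Proliferation markers had medians of 1.40 in Lgr5, −1.24 and −1.33 on the high arrays, −0.03 and −0.36 on the medium arrays and 0.39 and 0.51 on the low arrays, and 6 of 7 were higher in CD24 low than in high. Goblet markers were higher for 5 of 7 genes in both CD24 medium and low. Stem cell markers had a median of 1.72 in Lgr5 and of −1.24 to 0.06 on the other arrays. Of 5 tuft markers, 2 were lower in CD24 medium and 3 in CD24 low than in high, and of 5 immune markers 2 (Cd52 and Lyz2) were lower in each. Lyz2 differed from CD24 high by −5.22 and −7.45, beside medians of −6.25 and −9.29 for the Paneth markers. Cd52 differed by −1.14 and −0.78, and Cd3e, Cd79a and Cd74 did not pass in either comparison. Of 6 mesenchyme markers, 3 were lower and 1 higher in CD24 medium than in high, 2 were lower in CD24 low than in high, and 4 were higher in CD24 high than in Lgr5. Both erythroid markers were lower in CD24 medium than in CD24 high and than in Lgr5. Enterocyte markers were below whole intestine on every array, with medians of −5.32 to −3.28. Their part in the differences of the sterol and fatty acid genes was not tested.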

How the data were processed

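The deposited array files give, per the file headers, the intensity of each spot and its background for Cy3 and Cy5, as read by Agilent Feature Extraction 10.5.1.1, beside a log10 ratio of the dyes (Cy5 to Cy3). Values of the deposited series matrix are that log10 ratio with its sign turned (largest difference 5e-06); its column medians are 0, except −0.01852 for high 2. Each sample was amplified from 100 ng of RNA, per the labels.

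From these, log2 ratios of sample over reference were computed with limma 3.58.1 (R 4.3.3, data.table, version 1.17.8): normexp with offset 50, loess with span 0.3, controls at weight 0, outlier spots left out, no scaling between arrays. Probes that 2 or more of the 7 arrays showed well above background were kept (24455 of 41174), and the brightest per gene gave 17507 genes. A model with 1 mean per group over all 7 arrays and 3 residual degrees of freedom gave p-values, adjusted by Benjamini and Hochberg over all genes, threshold 0.05. Figures used matplotlib 3.10.9 and pandas 2.3.3 under Python 3.11.15. RefSeq named 26918 probes; 14256 kept the file's name. Probe coordinates are on mm9.

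Tested on simulated data with 17507 genes, CD24 low against high recovered 76 of 100 genes changed by 2 (log2) and 22 of 100 changed by 1, with 3 false calls; CD24 low against Lgr5 recovered 51 and 0, with 2 false calls.

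Members and lists were chosen with earlier results of these data known. Members that passed in at least 1 comparison are named with all values, with Srebf1, Srebf2, Insig1, Fasn and Hmgcs1 always, and up to 4 other pathway genes by largest difference in each CD24 comparison; any other gene named was chosen after its values were seen. Alternatives are given with the limits; within-slide values were added after seeing the data.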

Additional observations from a re-analysis of the deposited data

How the results depend on the processing

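Of 37 calls among 174 member values, 10 held in every alternative run: Acss2 in its 3 comparisons with Lgr5, Fasn, Insig1, Insig2 and Srebf1 in CD24 high against Lgr5, and Cyp51, Fdps and Mvk in CD24 low against Lgr5. All 10 rest on the 1 Lgr5 array, which no run of these comparisons could leave out, so the runs cannot show how far they depend on it. No call between CD24 levels held in every run. Over 2592 alternative values, 116 lost a call, 100 gained one and 13 turned direction. The cause was not tested.

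Members called differed by over 1.5 times without background subtraction (7 in CD24 medium against high, 10 in medium against Lgr5), with processed signals (7 in low against Lgr5), with the series matrix (3 in medium and 6 in low against Lgr5) and with slide as a term (13 in medium against Lgr5). Processed signals gave fatty acid medians of 0.42 (medium against high), 0.84 (low against high) and 0.01 (high against Lgr5), and the series matrix 0.58, 1.01 and −0.27. The sample channel alone gave sterol and fatty acid medians of 0.66 and 0.36 (medium against high), −0.02 and −0.21, 0.32 and 0.15, and 0.48 and 0.35 (high, medium and low against Lgr5), and a fatty acid median of 0.50 (low against high). The mean of all probes gave sterol medians of −0.02 (medium against high) and 0.34 (low against high) and a fatty acid median of 0.08 (low against high). Slide as a term gave a sterol median of 1.39 (low against Lgr5). The series matrix moved the median of all genes to 0.21, 0.24 and −0.15 in medium and low against high and high against Lgr5.

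Single genes turned with processed signals (Scd1 −0.02 in high against Lgr5, 0.79 and 0.31 in low and medium against high), the sample channel alone (Scd1 −0.04 and 0.01 in high against Lgr5 and medium against high), the series matrix (Nsdhl −0.84 and Scd1 −0.30 in high against Lgr5, Scd1 0.95 and 0.47 in low and medium against high), a filter on all 7 arrays (Acaca 0.88 in high against Lgr5, −0.74 and −0.86 in low and medium against high) and the mean of all probes (Fdft1 −0.38 in low against high).

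Leaving out 1 array, members called ranged 0 to 4 (medium against high), 0 to 6 (low against high), 0 to 0 (low against medium), and 8 to 11, 2 to 6 and 6 to 11 (high, medium and low against Lgr5). In the same order, sterol medians ranged 0.15 to 0.69, 0.32 to 1.00, 0.03 to 0.55, 0.34 to 0.39, 0.50 to 1.00 and 0.81 to 1.22, and fatty acid medians −0.07 to 0.07, 0.25 to 0.39, 0.19 to 0.42, 0.38 to 0.50, 0.12 to 0.69 and 0.59 to 1.07. All genes called numbered 3658 in medium against high (1269 without medium 2, 1495 without medium 1, 1840 without high 2) and 3164 in low against high (1679 without low 2, 5704 with the series matrix).

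With the replicate number as a block, 7 members were called in CD24 medium against high, 14 in low against high and 0 in low against medium (4018, 3590 and 29 of all genes). Deviations of same-numbered arrays correlated at 0.30 (high with medium), −0.01 (high with low) and 0.48 (medium with low), so the numbers were not taken to pair the samples.

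With 2 arrays per CD24 level and 1 for Lgr5, the number of arrays limits the precision, and members dim in CD24 high have only a bound there.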

Other observations

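The sterol arm was also described by its order of reactions, a split chosen after the values were seen and carrying no test. The 9 genes from acetyl-CoA to squalene epoxide (Acat2, Hmgcs1, Mvk, Pmvk, Mvd, Idi1, Fdps, Fdft1 and Sqle) had a median difference of 0.61 in CD24 medium and 0.88 in CD24 low against CD24 high, with 8 of 9 positive in each. The 7 genes from lanosterol on had medians of −0.14 and 0.17, with 2 and 5 of 7 positive. With the mean of all probes the medians for CD24 medium were 0.03 and −0.14, and for CD24 low 0.48 and 0.25, so the gap rests partly on the probe taken. With the series matrix they were 0.71 and 0.28 for CD24 medium, and 0.98 and 0.54 for CD24 low. The sample channel alone turned the later-step median for CD24 medium to 0.28. Leaving out 1 array took the earlier-step median for CD24 medium to 0.34 (without medium 1) or 0.33 (without high 2), and that for CD24 low to 0.51 (without high 2).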
